A study of Penicillium oxalicum with 6 samples.

Results

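The genes described here set 1 library of Penicillium oxalicum mycelium, replicate F of the libraries labelled Avicel, apart from the other two libraries with the same label. They were chosen by their FPKM values (fragments assigned to a gene, scaled to its length and to the library's total) in the 6 deposited tables, so their departure in replicate F is a description and not a finding. A gene was taken when its FPKM in replicate F was at least 2.5 times, or at most 0.4 times, the mean of replicates S and T. It also needed an Avicel mean of 5 FPKM or more, a ratio of that mean to the wheat bran mean above 0.25 and under 4, and both group means under 1000. Of 9834 genes, 66 met the rule: 10 were high and 56 were low in Avicel replicate F.

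Penicillium oxalicum is a filamentous fungus that secretes enzymes which degrade cellulose, hemicellulose and starch, and it adjusts the transcription of many genes to its carbon source. In filamentous fungi, genes that act in one pathway can lie side by side in the genome and be transcribed together. The gene IDs in the files carry no names, and 0 of them matched the 9964 entries of the RefSeq table for this species, so no function or position is given for any gene below. IDs are printed for few genes, and some others are given by the number in their ID.

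The 3 libraries labelled Avicel (microcrystalline cellulose, 1%) and the 3 labelled wheat bran (1%) carry the replicate letters F, S and T, and all are labelled as the strain MuKu70 at 4 hours of culture. A Ku70 mutant lacks a protein of DNA end joining and is used because targeted gene replacement is more frequent in it. The series title names instead a deletion mutant of gene POX07277, moved from glucose to Avicel for 24 hours, and the table names also give 24 hours. POX07277 had 427, 375 and 331 expected counts in Avicel F, S and T and 0 in every wheat bran library. Labels and title therefore disagree, and "Avicel" and "wheat bran" below are names of libraries only. Genotype and medium cannot be told apart between the groups. The labels and the table names each give 1 time for all libraries, but disagree on whether it was 4 or 24 hours. Libraries held 13176152 to 14598919 expected counts. No label gives a separate culture to each library, so every p-value below measures the spread among these libraries, which may be technical. The RNA was taken from whole mycelium, where fewer cells of one kind and less RNA per cell cannot be told apart.

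The bounds were applied in order. The ratio bound alone held for 557 genes, 150 high and 407 low. The minimum of 5 FPKM left 94 of them, the bounds on the group ratio left 70, and the limit of 1000 FPKM left 66. The rule also drops some ranges of ID numbers, which removed no further gene. Bounds other than the ratio were met by 7118 genes, which are called the genes within the level bounds below. The low genes just inside the bound had ratios of 0.398 and 0.398, and the genes just outside had 0.401 and 0.401. The high genes just inside had 2.52 and 2.56, and those just outside had 2.40 and 2.36.

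**Figure D1:**
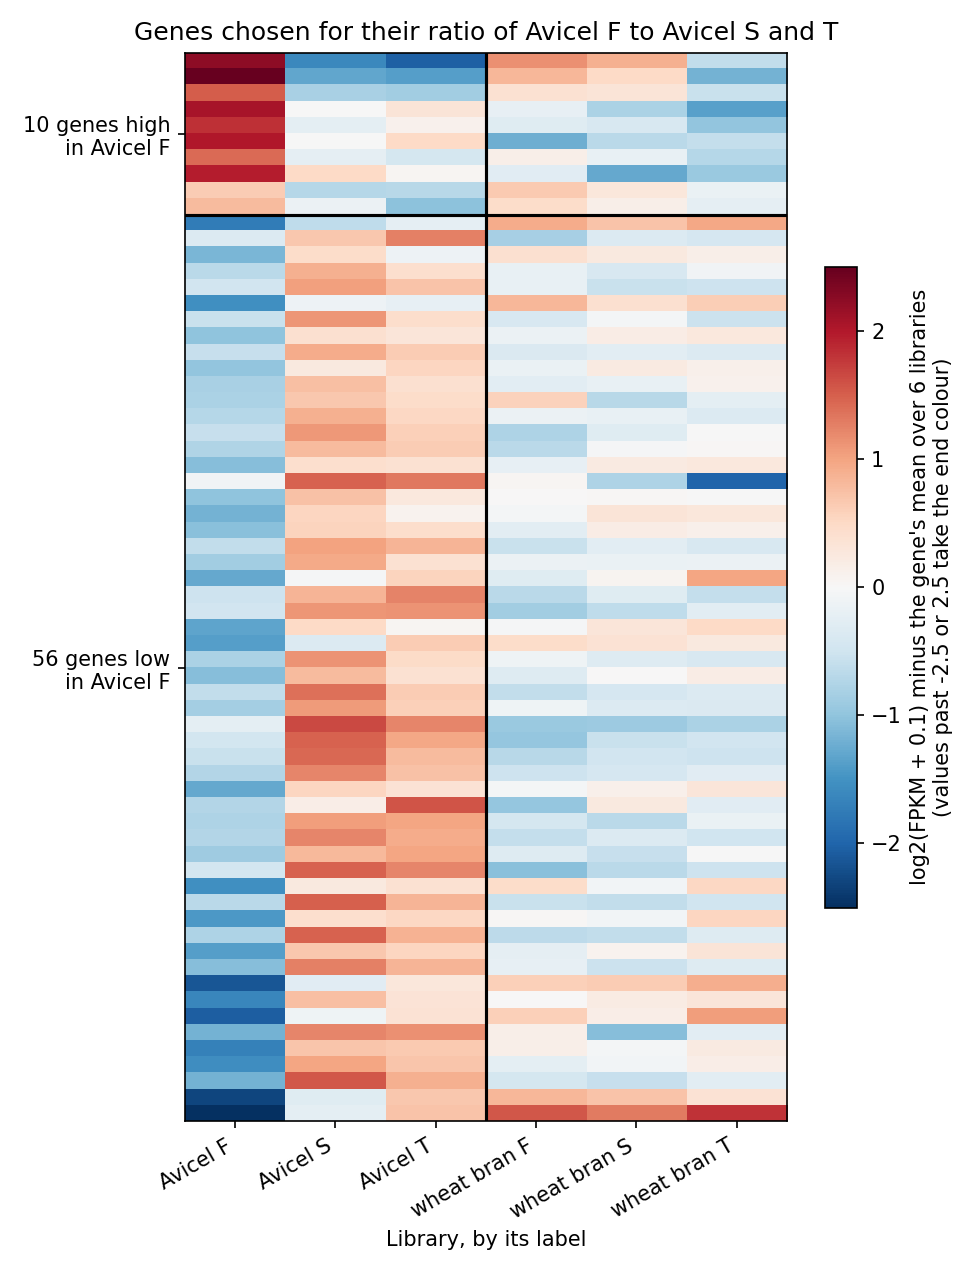
Level of the 66 chosen genes (rows, by falling ratio of Avicel F to the mean of Avicel S and T) in the 6 libraries (columns), as log2(FPKM + 0.1) minus each gene's own mean over the libraries. The upper block holds the 10 high genes and the lower block the 56 low genes. The left column differs from the next 2 because the rule chose it, while the 3 wheat bran columns were not chosen to differ.

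The low genes took a small part of each library. They held 0.248% of the counts in Avicel replicate F, against 0.907% in S and 0.767% in T, and 0.526%, 0.545% and 0.614% in wheat bran F, S and T. Their median FPKM was 19.6 in Avicel F, 72.1 in Avicel S and 61.9 in Avicel T, and lay between 37.7 and 47.4 in the wheat bran libraries. By these medians the low genes sat below the wheat bran level in Avicel F and above it in Avicel S and T. The rule set F far under S and T and bounded the group ratio, so this is a description only. The high genes held 0.549% of the counts in Avicel F, 0.0528% in S and 0.0456% in T. In wheat bran they held 0.230% in F, 0.192% in S and 0.0733% in T, so the wheat bran libraries also differed among themselves for this set. Most of these counts came from 2 genes, POX09365 and POX09361. The median FPKM of the high genes differed less, at 15.9, 12.8 and 9.32 in wheat bran F, S and T.

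Counting error alone leaves some of the choices unsure. The exact (Clopper-Pearson) 95% interval of the ratio lay wholly past the bound for 34 of the 56 low genes and 8 of the 10 high genes. It reached the bound for 22 low and 2 high genes. In all, 14 of the 66 genes had under 100 counts in Avicel F. The least covered gene had 2, 8 and 11 counts in Avicel F, S and T, a level in F of 20.7% of the mean of S and T with an interval from 2.34% to 86.0%. These intervals cover counting error only, not the variation between cultures. They rest on the same libraries that chose the genes, so the 95% is nominal and the numbers past the bound are a description.

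The high genes were led by POX09365 and POX09361. POX09365 stood at 1884 FPKM in Avicel F, 132 in S and 97.3 in T, and at 892, 747 and 262 FPKM in wheat bran F, S and T. POX09361 stood at 2282, 164 and 155 FPKM in Avicel F, S and T, and at 713, 569 and 177 FPKM in wheat bran F, S and T. In both genes Avicel F was the highest of the 6 libraries. Wheat bran F and S lay well above Avicel S and T, and wheat bran T lay nearest to them. Avicel F was 16.5 times the mean of S and T for POX09365 and 14.3 times for POX09361, with counts of 44949 and 24632 behind the values in F.

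These 2 genes belong to a stretch of ID numbers in which most genes shared the departure. Of the 7 numbers from 9359 to 9365, 5 were chosen, all of them high. The gene numbered 9360 stood at 71.7, 16.9 and 21.3 FPKM in Avicel F, S and T and at 14.8, 9.79 and 6.56 in wheat bran. The gene numbered 9359 stood at 41.4, 13.3 and 11.4 FPKM in Avicel and at 17.1, 13.7 and 9.49 in wheat bran. Both were highest in Avicel F, and in wheat bran both were highest in F and lowest in T.

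The gene numbered 9363 was the exception within wheat bran. It had 11.2, 2.71 and 3.90 FPKM in Avicel F, S and T and 1.11, 1.67 and 1.78 in wheat bran F, S and T. Its wheat bran values rest on 15, 23 and 25 counts. The gene numbered 9364 behaved alike, at 21.7, 3.31 and 5.39 FPKM in Avicel and 1.44, 1.69 and 2.18 in wheat bran, but its group ratio of 5.72 kept it out. The gene numbered 9362, in the middle of the stretch, did not share the pattern: it ran from 57.2 to 99.5 FPKM over all 6 libraries, and Avicel F was 0.882 times the mean of S and T.

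The stretch went on below number 9359. The gene numbered 9358 met every bound but the limit of 1000 FPKM, and its difference was larger than that of any chosen gene. It stood at 10943 FPKM in Avicel F, 89.7 in S and 86.9 in T, a ratio of 124, and at 4919, 4748 and 728 FPKM in wheat bran F, S and T. The gene numbered 9357 had 81.7, 13.6 and 24.8 FPKM in Avicel and 6.82, 5.75 and 4.30 in wheat bran. The departure ended at number 9366, where all libraries lay between 28.3 and 54.1 FPKM, and at number 9356, where Avicel F was the lowest of its group, at 42.1 FPKM against 76.1 in S and 127 in T. Genes 9356 to 9358, 9362, 9364 and 9366 were picked for description after their values were seen. Whether the ID numbers follow positions in the genome was not tested here.

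**Figure D2:**
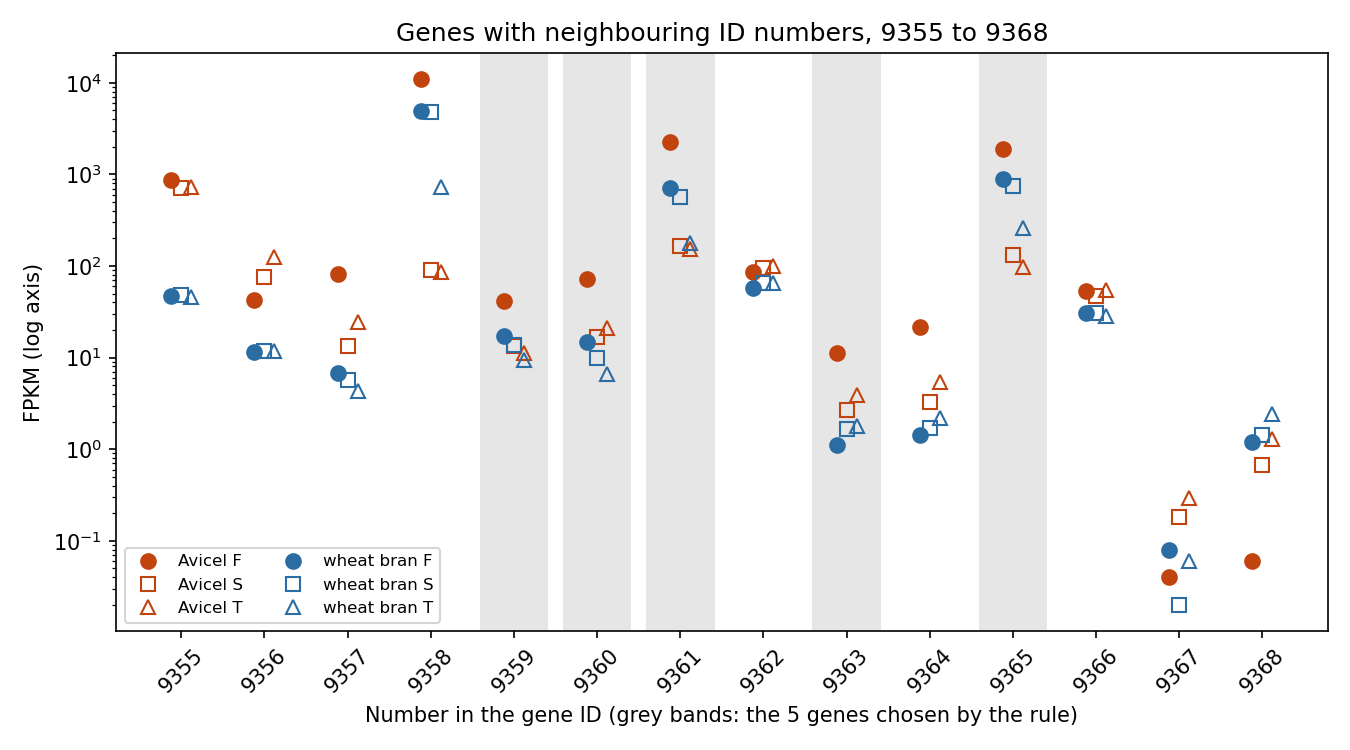
FPKM (log axis) of the genes numbered 9355 to 9368 in each of the 6 libraries, with the 5 chosen genes on grey bands; filled circles are replicates F, open squares S and open triangles T, in red for Avicel and blue for wheat bran. Avicel F is the highest library at 9357 to 9361 and 9363 to 9365, and for 9358, 9361 and 9365 wheat bran T lies below wheat bran F and S.

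The other 5 high genes had ratios from 2.52 to 5.10. The gene numbered 870 stood at 191, 38.2 and 36.6 FPKM in Avicel F, S and T and at 86.7, 83.4 and 45.3 in wheat bran. The gene numbered 862 stood at 46.6, 18.1 and 18.3 FPKM in Avicel and at 47.3, 36.4 and 26.6 in wheat bran, where F reached the level of Avicel F. Its neighbour by number, 861, was the gene just outside the upper bound, at 41.1, 16.8 and 17.4 FPKM in Avicel and 33.2, 23.9 and 18.0 in wheat bran. For the genes numbered 870, 862 and 861 wheat bran T was the lowest of its group. The genes numbered 859, 860 and 863 also had ratios past the bound, at 4.68, 3.51 and 3.93, but fell under the minimum of 5 FPKM. Their ratios rest on 3 to 11 counts in Avicel S and T, and they were picked for description after their values were seen. The remaining 3 high genes stood at 18.6 to 61.7 FPKM in Avicel F.

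Among the low genes, POX02208 departed most. It stood at 0.46 FPKM in Avicel F, 16.3 in S and 32.0 in T, and at 57.3, 48.0 and 68.4 FPKM in wheat bran F, S and T. Its counts in Avicel F, S and T were 7, 244 and 474, so its level in F was 1.92% of the mean of S and T, with a counting interval from 0.770% to 3.98%. All 3 Avicel libraries lay below all 3 wheat bran libraries, and Avicel F lay far below the other two. POX02559 was next, at 7.93, 31.9 and 63.0 FPKM in Avicel F, S and T and 70.3, 64.2 and 50.7 in wheat bran. In both genes Avicel S lay between F and T.

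The most abundant low gene behaved otherwise. It stood at 289 FPKM in Avicel F, 1379 in S and 902 in T, and at 315, 324 and 395 FPKM in wheat bran F, S and T. Here Avicel F lay just under the wheat bran range, and S and T far above it. Of the low genes, 20 had a mean of 100 FPKM or more in Avicel and 6 had under 10. Their ratios had a median of 0.318 and quartiles of 0.272 and 0.363, so POX02208, at 0.0190, was far from the rest. In 45 of 56, the higher of S and T was over 3 times the value in F.

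Some low genes were also neighbours by number. Of the 66 genes, 15 lay within 5 numbers of another chosen gene. These were the 5 high genes above and 10 low genes in 4 sets. The 4 sets were numbered 35 and 36, 2558 and 2559, 5652 to 5655 and 6391 to 6396. How many neighbours a random choice of genes would hold was not computed, so nothing is read from this count. No set mixed high and low genes. The gene numbered 2558 stood at 14.9, 31.0 and 60.9 FPKM in Avicel F, S and T and at 53.6, 50.3 and 46.4 in wheat bran, with F lowest and T highest within Avicel, as in its neighbour POX02559. The genes numbered 6391 and 6396 stood at 87.5, 336 and 234 FPKM and at 38.5, 148 and 122 FPKM in Avicel F, S and T, in both cases with S highest. Between them, 6393, 6394 and 6395 were not chosen, with Avicel F at 0.928, 0.891 and 0.821 times the mean of S and T. Of the 4 numbers from 5652 to 5655, 5653 was left out, with Avicel F at 1.14 times the mean of S and T.

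The place of Avicel F and of Avicel S and T against the wheat bran libraries was then described, gene by gene. Since the rule used the Avicel contrast and the group ratio, the counts are given beside those of the 7118 genes within the level bounds, and nothing is read from them. Avicel F lay below all wheat bran libraries in 45 of 56 low genes, where the share of genes within the level bounds was 40.3%. The mean of Avicel S and T lay above all wheat bran libraries in 43 of 56, where the share was 44.8%. In 31 low genes F lay below and S and T each lay above the whole wheat bran range, which held for 3.47% of the genes within the level bounds.

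Of the 43 low genes whose mean of S and T exceeded wheat bran, 32 had F below the wheat bran range, 7 within it and 4 above it. These 43 had a median of 2.29 times the wheat bran mean in S and T and 0.710 times in F. In another 7 low genes the mean of S and T also lay below wheat bran, POX02208 and POX02559 among them, with medians of 0.619 times in S and T and 0.146 times in F. The last 6 had S and T within the wheat bran range and F below it. The low genes are therefore not described as 1 profile. As the rule used the Avicel contrast and the group ratio, nothing more is read from this split.

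Among the high genes, Avicel F lay above all wheat bran libraries in 9 of 10, where the share of genes within the level bounds was 44.0%. The mean of Avicel S and T lay below all wheat bran libraries in 5 of 10, against 38.3%. In 3 high genes F lay above and S and T each lay below the whole wheat bran range, against 1.33%. POX09365 and POX09361 were 2 of these 3, with Avicel S of POX09361 close to wheat bran T, at 164 against 177 FPKM.

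**Figure D3:**
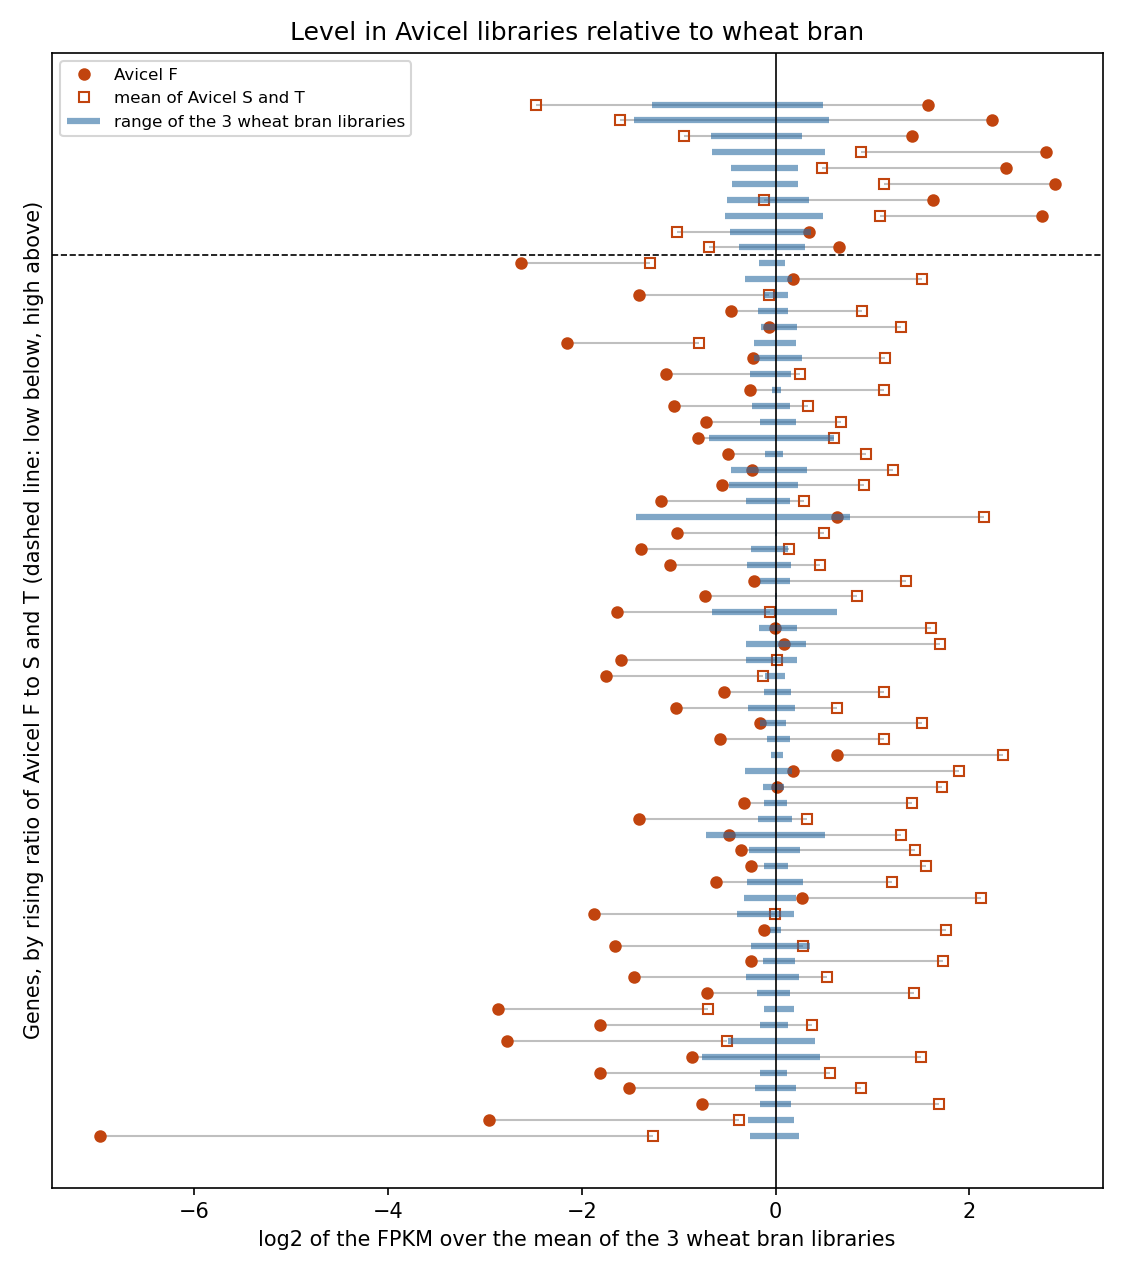
Each row is 1 of the 66 chosen genes, by rising ratio of Avicel F to the mean of Avicel S and T, and the x axis gives log2 of the FPKM over the mean of the 3 wheat bran libraries. Filled circles are Avicel F, open squares the mean of Avicel S and T, and blue bars the range of the wheat bran libraries. In 32 low genes the circle lies left of the bar and the square right of it, and in 4 high genes the order is turned round.

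This spread bears on the comparison of the groups, which asks which genes differ between the libraries labelled Avicel and wheat bran. With all 6 libraries, 16 of the 64 chosen genes that passed the filter on low counts were called (edgeR quasi-likelihood test, adjusted p under 0.05), where 55.0% of the 8636 tested genes were called. The called genes were 3 high and 11 low genes with a higher level in Avicel, and 2 low genes with a lower one. The other two of the 66, both low and with at most 39 counts in any library, were not tested. The rule bounds the group ratio and picks genes that vary within Avicel, so nothing is read from this share.

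Without Avicel replicate F, 48 of 66 chosen genes were called, where 57.5% of 8693 tested genes were. Of these, 37 low and 3 high genes were higher in Avicel, and 4 low and 4 high genes were lower. The genes were chosen because Avicel F departs from S and T, so leaving out F narrows their spread in Avicel by construction, and nothing is read from the added calls. Every call made with all libraries was kept without F, in the same direction, and 30 genes tested in both fits were called only without it. The median log2 fold change of the 54 low genes in both fits moved from 0.52 to 0.89, and that of the 10 high genes from 0.79 to -0.40. For 4 high genes and 7 low genes the sign changed. Without other libraries the count was 4 to 13: it was 4 without wheat bran T, 5 without wheat bran F or S, 8 without Avicel S and 13 without Avicel T, where 44.9% to 48.4% of all tested genes were called. With limma on log2 FPKM it was 8, where 53.3% to 53.4% of all tested genes were called with the 2 pseudocounts.

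For the 4 named genes the group values restate in part the ratios that chose them, so they are given as a description with no test. Over all libraries, the log2 fold change (Avicel over wheat bran) of POX09361 was 0.85, with a standard error (SE) of 1.02 (edgeR). Its group levels were 867 ± 1226 FPKM in Avicel and 486 ± 278 FPKM in wheat bran (SD, n = 3 each). Without Avicel F its log2 fold change was -1.60 (SE 0.49). POX09365 went from 0.17 (SE 1.05) to -2.46 (SE 0.48). For POX09361 the sign turned only without Avicel F among the libraries left out in turn, and for POX09365 it also turned without wheat bran T, at -0.20.

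For the leading low genes the direction held. With all libraries POX02208 was at -1.84 on the log2 scale (SE 0.81), and at -1.27 (SE 0.27) without Avicel F. Without Avicel T it was -2.77. POX02559 had -0.85 (SE 0.55) and, without Avicel F, -0.38 (SE 0.25). Without Avicel T it was -1.61. The most abundant low gene had 1.31 (SE 0.47) with all libraries and 1.73 (SE 0.20) without Avicel F.

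The groups did not overlap in 4 of 10 high genes and 8 of 56 low genes, where 62.2% of the genes within the level bounds did not overlap. As the rule picks genes with a wide spread in Avicel, this is a description too.

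How replicates S and T labelled Avicel differed from each other was not used by the rule, which took their mean. They differed by 2-fold or more in 1 of 56 low genes and 0 of 10 high genes, where the share among genes within the level bounds was 0.183%. Avicel S was above T in 41 of 56 low genes and 6 of 10 high genes, against 42.7%. With counts scaled by TMM (trimmed mean of M-values) it was 42 of 56, against 50.8%. The median ratio of S to T was 1.18 in the low genes and 0.979 in the genes within the level bounds. T thus lay between F and S in 41 low genes, and S between F and T in the other 15, POX02208 and POX02559 among them.

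Differences among the wheat bran libraries were likewise not used by the rule, which took only their mean. They give a view of the same genes in differences that did not choose them, although the mean of these libraries did enter the rule. High genes with neighbouring numbers are also not independent of each other. Wheat bran F was the highest of its group in 9 of 10 high genes, where 40.4% of the genes within the level bounds had it highest. The order F above S above T held for 8 of 10, against 26.0%. Wheat bran T was the lowest in 8 of 10, against 43.6%. The exceptions to F being highest and T lowest included the gene numbered 9363, the only high gene with wheat bran F lowest. Without the 5 genes numbered 9359 to 9365, F was highest in 5 of 5.

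The median ratio of wheat bran F to the mean of S and T was 1.49 in the high genes and 1.01 in the genes within the level bounds. On the scale of log2(FPKM + 0.1) the median difference of the high genes was 0.57, and it ranged from -0.59 to 0.93. Without wheat bran T the median was 0.31, and without S it was 0.84. In Avicel the same difference had a median of 1.81 and reached 4.04. The step to wheat bran T was wider: F over T had a median of 1.79 in the high genes and reached 4.04 for POX09361.

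The low genes leaned the other way in wheat bran, by less. Wheat bran F was the lowest of its group in 30 of 56, where 32.2% of the genes within the level bounds had it lowest, and the highest in 13. Wheat bran T was the highest in 31 of 56, against 25.1%. The order F below S below T held for 20 of 56, against 15.5%. The median ratio of F to the mean of S and T was 0.886, with quartiles of 0.776 and 1.04. The ratio was above 1 in 17 of 56 low genes, against 54.1% of the genes within the level bounds. This lean rested in part on wheat bran T: without it, F was below S in 32 of 56, where 49.9% of the genes within the level bounds were, and the median log2 difference was -0.062 in place of -0.17. The share also depended on the scaling. With all wheat bran libraries and counts scaled by TMM, F was lowest in 31 of 56, against 37.7%, and the median log2 difference was -0.20.

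**Figure D4:**
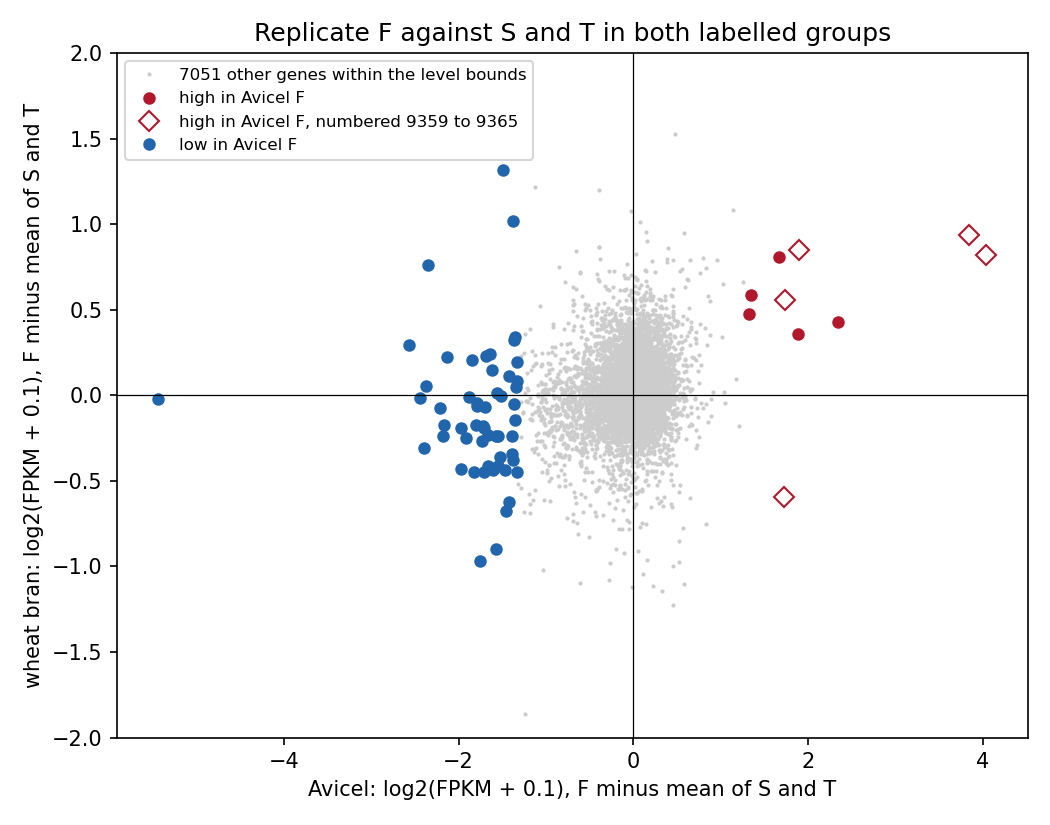
Difference of replicate F from the mean of S and T on the scale of log2(FPKM + 0.1), in Avicel (x axis) and in wheat bran (y axis), for the 66 chosen genes and 7051 other genes within the level bounds (grey; 1 more lies below the axis). The gap along the x axis is made by the rule. Along the y axis 9 of 10 high genes lie above 0, against 54.1% of the genes within the level bounds. Below 0 lie 39 of 56 low genes, against 45.8%.

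The test of wheat bran F against S and T compared 1 library with 2 and took the lone library to vary like the others, so it compares these libraries only. It called 0 of 64 chosen genes (edgeR quasi-likelihood test, adjusted p under 0.05), and 0.0% of the 8636 tested genes. DESeq2 called 57 of all genes and 1 low gene among the chosen ones, which was lower in F. At an unadjusted p under 0.05 (edgeR), 4 of 10 high genes were higher in wheat bran F, where 5.36% of all tested genes were, and none was lower. Of the 54 low genes tested, 7 were lower, against 5.01% of all tested genes, and 2 were higher. None of these 13 genes held after adjustment in edgeR.

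For the leading genes this test gave wide errors. The log2 fold change of wheat bran F over S and T was 0.92 for POX09361 (SE 0.51, edgeR adjusted p = 0.584), and 0.81 for POX09365 (SE 0.49, edgeR adjusted p = 0.629). With wheat bran S or T left out, the fit compares 1 library with 1 and takes its spread from Avicel S and T alone, so only the values are given: 1.97 for POX09361 without S and 0.32 without T. POX02208 had -0.05 (SE 0.34) and POX02559 had 0.27 (SE 0.32, edgeR adjusted p = 0.821). For these 2 low genes the difference was under its SE.

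Across the 7118 genes within the level bounds, which are not independent replicates and share the same libraries and depth, the log2 differences of replicate F in both groups had a Pearson r of 0.16 and a Spearman rho of 0.13. Within the low genes the Spearman rho was -0.02 over 56 genes. Within the high genes it was 0.39 over 10 genes, 5 of them neighbours by number. The rule bounded the Avicel differences in both sets, and genes are not replicates, so nothing is read from the values within the sets.

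Other features of the chosen genes were described without a test. Expected counts were whole in all libraries for all 66, where 0.688% of the genes within the level bounds had a count that was not whole, so no chosen gene showed reads divided with a similar gene. The length implied by counts and FPKM, an effective length, had a median of 931 bases in the low genes, 1401 in the high genes and 1305 in the genes within the level bounds. Over the latter, the difference of Avicel F from S and T had a Spearman rho of -0.01 with length. The median FPKM in Avicel was 51.3 for the low genes and 30.6 for the high genes, against 32.8 for the genes within the level bounds.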

How the data were processed

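The authors deposited, per the file headers, 1 table per library with, for each gene, an unnormalized expected count (reads assigned by estimation) and its FPKM. The submitters' processing notes list RSEM 1.2.12, DESeq2, Bowtie2 2.1.0 and BWA 0.7.10-r789 without roles. Strand handling, build and annotation: not given in the sources used here. Thus overlapping or antisense genes may share reads. The depth was 13176152 to 14598919 counts per library.

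The rule and all ratios used FPKM as deposited. Expected counts were rounded and tested across all genes by the two-sided quasi-likelihood test of edgeR 4.0.16 (R 4.3.3) after filterByExpr and TMM scaling, with Benjamini-Hochberg adjusted p under 0.05 as threshold, for the groups and, with a term for replicate F in each group, for wheat bran F against S and T. SEs came from the F statistic. Alternatives used DESeq2 1.42.0, limma 3.58.1, other filters and scalings, and each library left out. Both tests were tested on simulated data. Genes were named by rule: the 2 highest and 2 lowest ratios by ID, others without an ID or by number. The members and tests were chosen with earlier results of these data known.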

Additional observations from a re-analysis of the deposited data

How the results depend on the processing

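Leaving out libraries moved the count of chosen genes called between the groups (16) to between 4 and 48, the highest without Avicel F, where 44.9% to 57.5% of all tested genes were called, and limma on log2 FPKM gave 8 with either pseudocount (all genes 53.3% to 53.4%). The other scaling, filter and tool settings gave 15 to 17 (all genes 49.3% to 55.0%). With the letters as a replicate block it was 19 (all genes 53.3%). Correlations of deviations from the group means between Avicel and wheat bran were 0.16 (F), -0.08 (S) and 0.18 (T). Avicel F and T each correlated most with their own letter, but Avicel S correlated more with wheat bran T (0.15). As the letters did not match throughout, they were not taken to pair libraries, and whether they do was not tested. The log2 fold change between groups of POX09365 was -0.95 with limma at both pseudocounts and -1.01 with the replicate block, and ranged from -2.46 to 0.70 with a library left out, below 0 without Avicel F and without wheat bran T. That of POX09361 was -0.10 with limma at both pseudocounts and -0.11 with the block, and ranged from -1.60 to 1.36, below 0 only without Avicel F. Why these values differed from those of the main fit was not tested. In wheat bran, DESeq2 called 1 chosen gene in F against S and T, where 0.66% of all tested genes were called. Leaving out an Avicel library gave 0 chosen genes in edgeR, where 0% to 0.138% of all tested genes were called. With wheat bran S or T left out, 1 library is compared with 1, so no count is given. The median log2 difference of the low genes was -0.25 to -0.062 with S or T left out, and that of the high genes 0.31 to 0.84. POX02208 had differences in wheat bran F of -0.30 to 0.25 with a library left out. Without the genes numbered 9359 to 9365, chosen after the data were seen, wheat bran F was highest in 5 high genes, of 5. A minimum of 1 FPKM in place of 5 gave 122 genes under the rule, and the other settings gave 44 to 66. The other 40 values of the main comparisons, and 84 of 94 of the named genes, kept their direction and stayed within the limits set for a change, or gained a call. Depth limits the low genes most: 14 chosen genes had under 100 counts in Avicel F.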
